A study of Rattus norvegicus with 9 samples.

Results

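The 9 genes of LIF, CNTF and oncostatin M signalling described here are the ligands Lif, Osm, Cntf and Clcf1, the receptor subunits Lifr, Osmr and Cntfr, the transcription factor Stat3 and its feedback inhibitor Socs3. They were taken by gene symbol from the members of this pathway, and they are 9 of the 20413 genes in the expression table. All 9 passed the filter on low values, a mean FPKM (read fragments relative to transcript length and library size) of at least 0.1 over the libraries, as did 17187 genes in all.

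RNA-Seq was performed on bulk RNA of the ipsilateral L4–6 dorsal root ganglia (DRGs) of male Sprague Dawley rats, which were 8–10 weeks old and were killed on day 10. The Sham group, labelled Con, was anesthetized and wore a cut O-ring that left blood flow intact, and the chronic post-ischemia pain (CPIP) group wore a tight O-ring at the ankle until reperfusion. The CPIP+EA group had the same ischemia and then electroacupuncture (EA) at the hind limbs once daily for 10 days, and no needled group without current was among the libraries. Each group had 3 libraries, made from 3 rats, and all rats received the anesthetic.

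LIF, CNTF, oncostatin M and CLCF1 belong to the IL-6 family of cytokines, which signal through receptor complexes built around the shared subunit gp130, encoded by Il6st. The complexes activate JAK kinases, which phosphorylate STAT3, and SOCS3 is transcribed in response and shuts the receptor down again. In peripheral nerve, Schwann cells store CNTF, LIF is released after injury and travels back to the neuronal cell body, and oncostatin M acts on itch and pain neurons that carry its receptor.

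FPKM totals were similar across the 9 libraries, between 445647 and 482940, and between 18279 and 18456 genes were above 0 in a library. No pair of libraries had the same FPKM in more than 2.0% of the genes tested, so no library appeared to have been deposited more than once. The tissue label held, since all 8 sensory neuron markers were above 0 in every library. Their summed FPKM lay at 7910–9450 for Sham, 8180–8910 for CPIP and 7920–9610 for CPIP+EA. Some libraries stood apart in markers of other cells. The summed FPKM of 4 Schwann cell markers ranged from 3150 in CPIP+EA replicate 1 to 6450 in Sham replicate 3, and that of 7 neutrophil markers from 28.5 in CPIP replicate 3 to 551 in CPIP+EA replicate 3. That of 5 skeletal muscle markers was 121 in CPIP replicate 2 and between 7.45 and 35.9 in the others, and that of 5 erythroid markers was 2400 in CPIP+EA replicate 3 and between 251 and 1460 in the others.

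FPKM is scaled to transcript length, so the levels of the 9 genes can be set beside each other. By mean FPKM over the 9 libraries, the order from high to low was Lifr at 79.6, Cntf at 64.7, Stat3 at 59.1, Cntfr at 22.6, Socs3 at 6.14, Osmr at 5.01, Clcf1 at 0.877, Osm at 0.473 and Lif at 0.343. The library ranges of Lifr, Cntf and Stat3 overlapped, as did those of Socs3 and Osmr, and those of Clcf1, Osm and Lif. The ranges alone thus do not order the genes within these sets, although Lifr lay above Stat3 in every library. Cntfr lay below every library of Stat3 and above every library of Socs3. Lifr exceeded 93.7% of the genes tested in mean FPKM, while Lif exceeded only 9.41%. Lifr, Stat3 and Cntf were thus among the more abundant transcripts of the DRG, and the other 3 ligands averaged below 1 FPKM.

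The plot of FPKM by library shows all 9 genes in all 9 libraries.

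**Figure D1:**
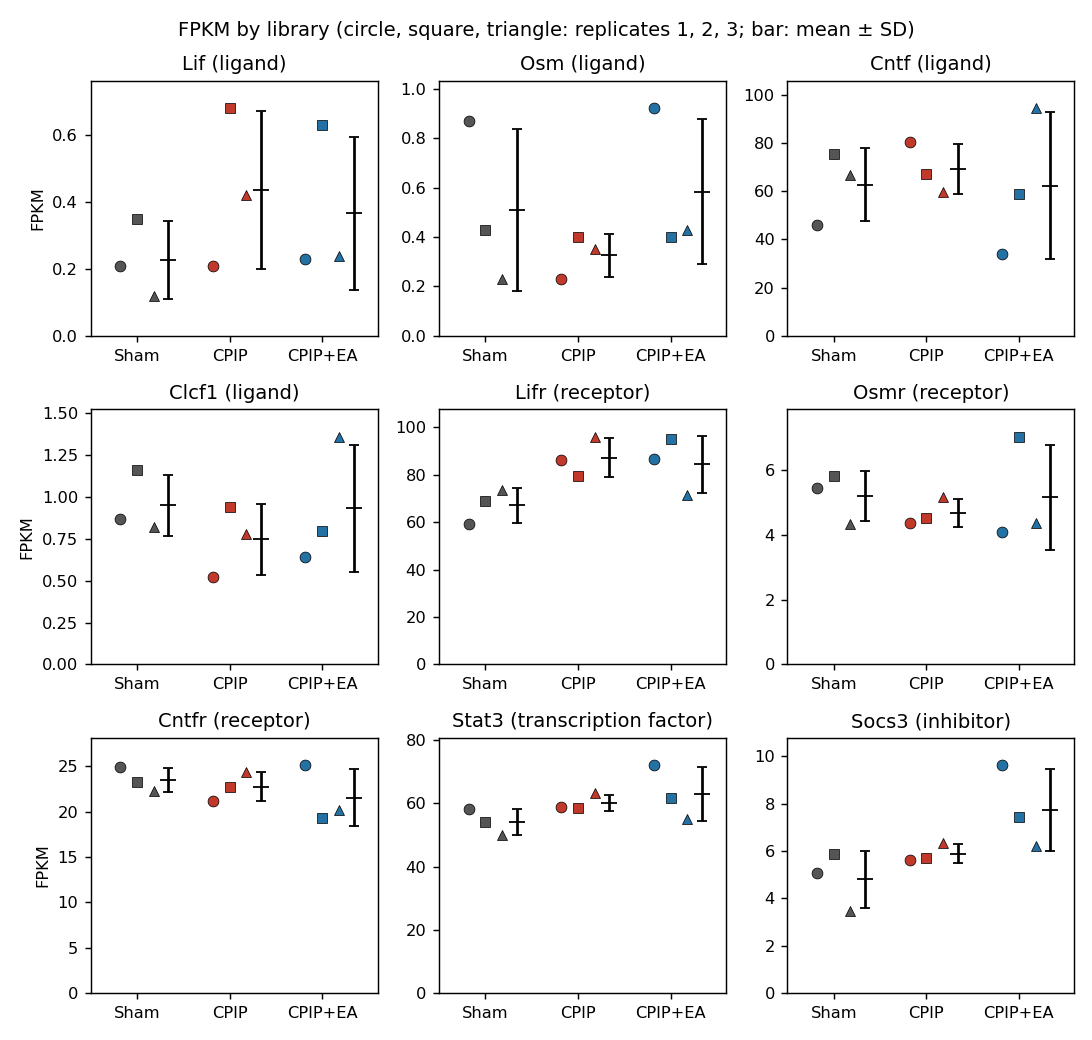
FPKM (vertical axes, linear, starting at 0) of the 9 genes in the Sham, CPIP and CPIP+EA groups, with 1 symbol per library and a bar for mean ± SD (n = 3). The 3 CPIP libraries of Lifr lie above the 3 Sham libraries, the 3 CPIP+EA libraries of Socs3 lie above the 3 Sham libraries, and the ligands overlap between all groups.

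A differentially expressed gene (DEG) had to reach an adjusted p under 0.01 and to differ by 1.5-fold or more in either direction. The p-values came from limma on log2(FPKM + 0.5) across all 17187 genes, with Benjamini-Hochberg adjustment, and all fold changes below are on that scale, where low FPKM values show less change than they had. None of the 9 genes was a DEG in any of the 4 comparisons made. The values by gene follow in the order ligands, receptors, transcription factor and inhibitor.

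Among the ligands, Lif encodes the cytokine that is best known for inducing neuropeptides in axotomized neurons. Its FPKM was 0.21, 0.35 and 0.12 in Sham, 0.21, 0.68 and 0.42 in the CPIP group, and 0.23, 0.63 and 0.24 in CPIP+EA. The groups overlapped, and the highest library of CPIP and of CPIP+EA was replicate 2 in each. The log2 fold change of CPIP against Sham was 0.35 (SE 0.24, 95% interval -0.19 to 0.88, limma adjusted p = 0.807), that of CPIP+EA against CPIP was -0.11 (adjusted p = 0.996) and that of CPIP+EA against Sham was 0.24 (adjusted p = 0.755). Without CPIP replicate 2 the first value was 0.17, and without CPIP+EA replicate 2 the last was 0.029. These 2 libraries also had the highest skeletal muscle marker sums, 121 and 35.9 FPKM. CPIP+EA replicate 3 came next with 31.6, and its Lif FPKM was 0.24. The part of muscle RNA in the values of Lif was not tested.

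Osm encodes oncostatin M, a product of macrophages, neutrophils and T cells. FPKM was 0.87, 0.43 and 0.23 in Sham, 0.23, 0.40 and 0.35 in the CPIP group, and 0.92, 0.40 and 0.43 in CPIP+EA. The 2 highest libraries, Sham replicate 1 and CPIP+EA replicate 1, were in different groups, and the groups overlapped. The log2 fold change was -0.25 for CPIP against Sham (SE 0.25, adjusted p = 0.91) and 0.36 for CPIP+EA against CPIP (95% interval -0.21 to 0.93, adjusted p = 0.996). Single libraries decided their size: without Sham replicate 1 the first was -0.0008, and without CPIP+EA replicate 1 the second was 0.15. The summed neutrophil marker FPKM was 45.2–133 in Sham, 28.5–220 in the CPIP group and 59.0–551 in CPIP+EA. It was 45.2 in Sham replicate 1 and 59.0 in CPIP+EA replicate 1, and 551 in CPIP+EA replicate 3, where Osm had 0.43 FPKM. The part of neutrophils, macrophages or T cells in the spread of Osm was not tested.

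Cntf encodes ciliary neurotrophic factor, which lacks a signal for secretion and is held in the cytoplasm of myelinating Schwann cells. FPKM was 45.89, 75.51 and 66.66 in Sham, 80.19, 67.13 and 59.81 in the CPIP group, and 33.84, 58.82 and 94.28 in CPIP+EA. Both the lowest and the highest of the 9 libraries were in the CPIP+EA group, whose SD of 30.4 compares with 15.2 in Sham and 10.3 in CPIP. CPIP against Sham had a log2 fold change of 0.16 (SE 0.33, 95% interval -0.58 to 0.90, adjusted p = 0.969), CPIP+EA against CPIP had -0.26 and CPIP+EA against Sham had -0.098. These directions rested on single libraries: without Sham replicate 1 the first value was -0.049, and without CPIP+EA replicate 1 the other two were 0.12 and 0.28.

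Cntf FPKM moved with Schwann cell markers from library to library. Over the 9 libraries, Pearson's r between the log2 values of Cntf and of the myelin genes Mbp, Pmp22 and Prx was 0.83, 0.87 and 0.74, and r with the Schwann cell marker S100b was 0.65. The points share their libraries and the scaling of each library, and r is given as a description. These 4 markers summed to 4160–6450 FPKM in Sham, 4240–6310 in the CPIP group and 3150–5760 in CPIP+EA, all 4 were tested, and none was at 0 in any library. In bulk RNA, fewer Schwann cells or less attached nerve cannot be told apart from less RNA per cell, and the part of Schwann cell RNA in the spread of Cntf was not tested.

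Stat3 ran the opposite way, with r between -0.76 and -0.84 against the same 4 markers, as the plot of FPKM relative to each gene's mean shows.

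**Figure D2:**
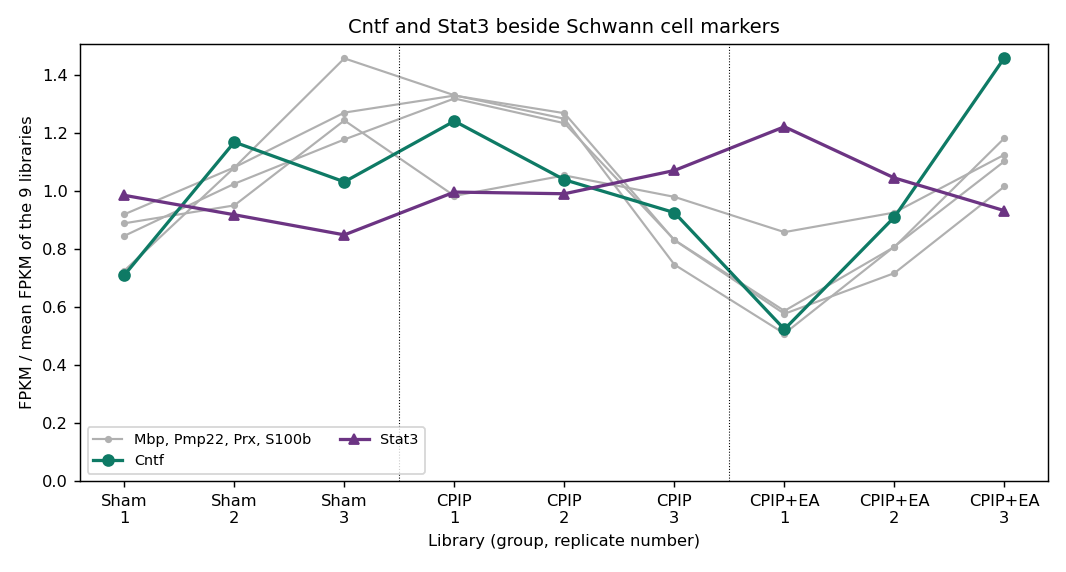
FPKM of Cntf, Stat3 and 4 Schwann cell markers in each of the 9 libraries, divided by the gene's mean over the 9 libraries (vertical axis, linear, starting at 0). Cntf is lowest in CPIP+EA replicate 1 and highest in CPIP+EA replicate 3, and Stat3 is highest in CPIP+EA replicate 1.

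Clcf1 encodes cardiotrophin-like cytokine factor 1, which binds the CNTF receptor. FPKM was 0.87, 1.16 and 0.82 in Sham, 0.52, 0.94 and 0.78 in the CPIP group, and 0.64, 0.80 and 1.36 in CPIP+EA. The groups overlapped, with log2 fold changes of -0.23 for CPIP against Sham (SE 0.21), 0.18 for CPIP+EA against CPIP and -0.041 for CPIP+EA against Sham. Without CPIP replicate 1 the first value was -0.088, and without CPIP+EA replicate 3 the others were -0.02 and -0.24. In the RefSeq annotation of GRCr8 the gene overlaps Rad9a, which had a mean of 7.49 FPKM, and since the strandedness of the counting is not given in the sources used here, reads of Rad9a cannot be told apart from its own. None of the other 8 genes overlaps a neighbour there.

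Lifr encodes the LIF receptor, which forms the signalling pair with gp130 for LIF, CNTF and CLCF1. FPKM was 59.06, 68.90 and 73.54 in Sham, 86.33, 79.38 and 95.97 in the CPIP group, and 86.79, 95.13 and 71.46 in CPIP+EA, or 67.2 ± 7.39, 87.2 ± 8.33 and 84.5 ± 12.0 as mean ± SD (n = 3). Every CPIP library lay above every Sham library, while CPIP+EA replicate 3 lay within the Sham range. The log2 fold change of CPIP against Sham was 0.38 (SE 0.12, 95% interval 0.10 to 0.65), with an unadjusted p of 0.013 that did not pass after adjustment over all genes (adjusted p = 0.35). That of CPIP+EA against Sham was 0.32 (unadjusted p = 0.0261, adjusted p = 0.318), and that of CPIP+EA against CPIP was -0.052 (95% interval -0.33 to 0.22). Leaving out any 1 library kept the first value between 0.29 and 0.44.

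The 8 sensory neuron markers did not move together. In CPIP against Sham, 5 of them (Rbfox3, Nefh, Nefl, Snap25 and Scn10a) had negative log2 fold changes and 3 (Prph, Tubb3 and Uchl1) had positive ones, with a median of -0.23, and 0 were DEGs. Rbfox3, a pan-neuronal marker, had -0.34 (adjusted p = 0.558) and Scn10a, a sodium channel gene of nociceptors, had -0.29 (adjusted p = 0.741), each with all CPIP libraries below all Sham libraries. The same held for Nefl (-0.24, adjusted p = 0.714) and Snap25 (-0.24, adjusted p = 0.308). Prph, an intermediate filament gene of small sensory neurons, had 0.28 (adjusted p = 0.599) and Tubb3, a neuronal tubulin gene, had 0.41 (adjusted p = 0.351), each with all CPIP libraries above all Sham libraries. Of the 8 markers, 4 were thus lower and 2 higher without overlap, against 15.9% of all genes in either direction. Over the 9 libraries, r of Lifr was positive with the same 3 markers (0.78 with Prph, 0.75 with Tubb3 and 0.59 with Uchl1) and negative with the other 5 (-0.46 with Rbfox3, the lowest -0.64). Of the 4 satellite glia markers, Apoe and Glul had log2 fold changes of 0.10 and 0.021 in CPIP against Sham. Kcnj10 and Fabp7 had -0.24 and -0.45, the latter between -0.72 and -0.17 with 1 library left out. The 4 markers had a median of -0.11 and 0 DEGs. Their summed FPKM was 3590–3720 in Sham, 3760–4090 in the CPIP group and 3980–4180 in CPIP+EA, and most of it was Apoe, whose mean in Sham was 3470. The part of neuronal or satellite glia RNA in the difference of Lifr was not tested.

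Osmr encodes the oncostatin M receptor, which also pairs with the IL-31 receptor subunit in itch neurons. FPKM was 5.44, 5.82 and 4.34 in Sham, 4.35, 4.52 and 5.15 in the CPIP group, and 4.08, 7.02 and 4.35 in CPIP+EA. The groups overlapped, and CPIP+EA replicate 2 was the highest of the 9. The log2 fold changes were -0.13 (CPIP against Sham, 95% interval -0.56 to 0.29), 0.093 (CPIP+EA against CPIP) and -0.04 (CPIP+EA against Sham). Without Sham replicate 3 the first value was -0.25, and without Sham replicate 2 it was -0.055. The partner subunit gene Il31ra was higher than Osmr in every library, at 21.14, 19.01 and 21.59 FPKM in Sham, 20.84, 22.41 and 24.12 in the CPIP group, and 22.05, 26.48 and 13.75 in CPIP+EA, and its log2 fold change of CPIP against Sham was 0.12.

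Cntfr encodes the CNTF binding subunit, which is anchored to the membrane of neurons and has no signalling domain of its own. Its FPKM was the steadiest among the 7 ligand and receptor genes of the set, at 24.94, 23.29 and 22.25 in Sham, 21.20, 22.77 and 24.35 in the CPIP group, and 25.12, 19.34 and 20.13 in CPIP+EA. The groups overlapped, with log2 fold changes of -0.045 for CPIP against Sham (SE 0.10, 95% interval -0.27 to 0.18), -0.086 for CPIP+EA against CPIP and -0.13 for CPIP+EA against Sham. The interval of CPIP against Sham excluded a 1.5-fold change in either direction. The shared subunit gene Il6st was steadier still, between 40.45 and 46.90 FPKM in all 9 libraries, with a log2 fold change of -0.052 for CPIP against Sham (SE 0.069, 95% interval -0.21 to 0.10).

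Stat3 encodes the transcription factor on which these receptors converge, and it is regulated mainly by phosphorylation, which RNA-Seq does not measure. FPKM was 58.13, 54.18 and 50.09 in Sham, 58.79, 58.45 and 63.18 in the CPIP group, and 72.07, 61.66 and 55.01 in CPIP+EA. Every CPIP library lay above every Sham library by a narrow margin, and CPIP+EA overlapped both groups. CPIP against Sham differed by 0.15 on the log2 scale (SE 0.098, adjusted p = 0.791), CPIP+EA against CPIP by 0.057 and CPIP+EA against Sham by 0.21 (unadjusted p = 0.0619, adjusted p = 0.437). Without Sham replicate 3 the first value was 0.098, and without CPIP+EA replicate 1 the others were -0.045 and 0.11. The r of Stat3 over the 9 libraries was 0.85, 0.91 and 0.88 with Prph, Tubb3 and Uchl1 and between -0.21 and 0.013 with the other 5 neuron markers, and the part of neuronal RNA or of the Schwann cell content in its differences was not tested.

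Socs3 encodes the inhibitor that STAT3 induces, and its transcript is widely read as a trace of recent signalling through gp130. FPKM was 5.07, 5.85 and 3.48 in Sham, 5.61, 5.72 and 6.34 in the CPIP group, and 9.62, 7.42 and 6.19 in CPIP+EA, or 4.80 ± 1.21, 5.89 ± 0.394 and 7.74 ± 1.74 as mean ± SD (n = 3). All 3 CPIP+EA libraries lay above all 3 Sham libraries, and CPIP overlapped both. The log2 fold change of CPIP+EA against Sham was 0.64 (SE 0.19, 95% interval 0.21 to 1.08), the largest among the 9 genes in these comparisons, with an unadjusted p of 0.00839 and an adjusted p of 0.201. It was 0.29 for CPIP against Sham (adjusted p = 0.792) and 0.35 for CPIP+EA against CPIP (unadjusted p = 0.102, adjusted p = 0.996), and these comparisons share their libraries. Without Sham replicate 3, the lowest library, the CPIP+EA against Sham value was 0.45 and the CPIP against Sham value 0.10, and without CPIP+EA replicate 1 the CPIP+EA against CPIP value was 0.19. The r of Socs3 was 0.80, 0.83 and 0.82 with Prph, Tubb3 and Uchl1, between -0.32 and -0.13 with the other 5 neuron markers, and between -0.68 and -0.79 with the Schwann cell markers. In CPIP+EA against Sham, 5 of the 8 neuron markers had negative log2 fold changes (Rbfox3 -0.55, Scn10a -0.59), and Prph and Tubb3 had 0.36 and 0.46. The part of neuronal or Schwann cell RNA in the difference of Socs3 was not tested.

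**Figure D3:**
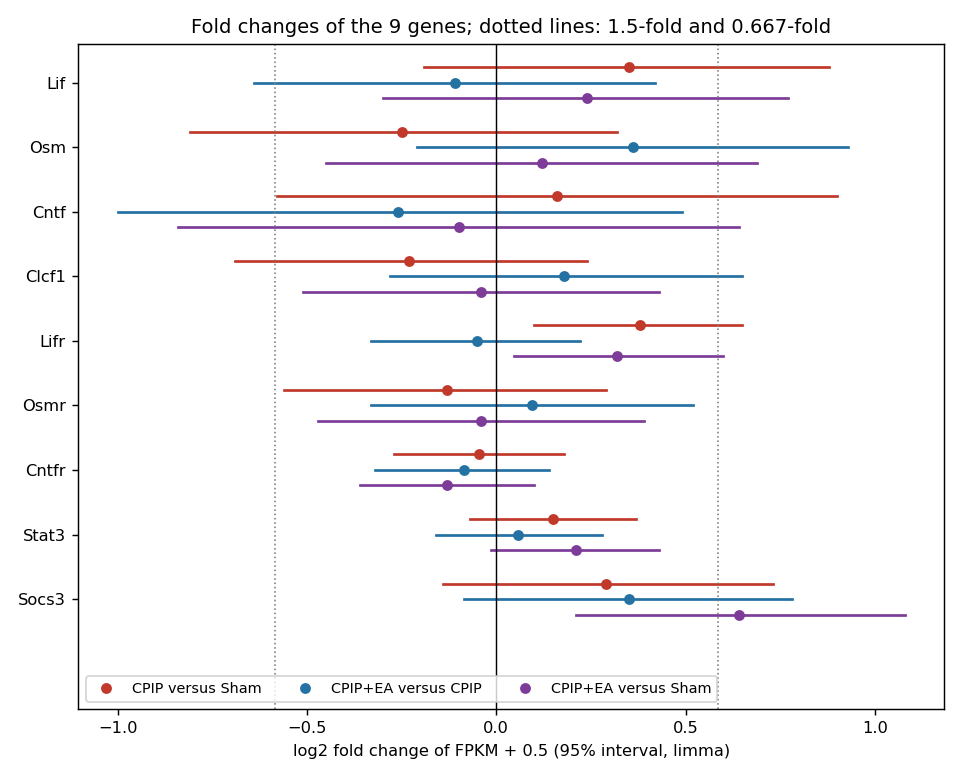
Log2 fold changes of FPKM + 0.5 (horizontal axis) of the 9 genes in 3 comparisons, as points with the 95% interval of the limma fit, and dotted lines at a 1.5-fold difference in either direction. The intervals of Lifr (CPIP and CPIP+EA against Sham) and Socs3 (CPIP+EA against Sham) lie above 0, and all other intervals include 0.

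Counted together, 0 of the 9 genes were DEGs in CPIP against Sham, where 0.355% of all genes tested were, and 1 gene (Lifr) had an unadjusted p under 0.05, against 8.66% of all genes. Libraries did not overlap between these groups for 2 of the 9, Lifr and Stat3, both higher in CPIP, against 15.9% of all genes. Between CPIP+EA and CPIP, limma called 0 of the 9 and 0.0% of all genes, and 0 of the 9 had an unadjusted p under 0.05 or groups that did not overlap, against 4.29% and 8.23% of all genes. Between CPIP+EA and Sham, 0 of the 9 were DEGs against 0.483% of all genes, 2 (Lifr and Socs3) had an unadjusted p under 0.05 against 12.2%, and 1 (Socs3) did not overlap against 16.2%. In the mean of CPIP and CPIP+EA against Sham, the figures were 0 against 0.599%, 2 against 11.8% and 0 against 7.27%. Counts of 0 to 2 among 9 genes do not stand apart from these shares. The median log2 fold change of the 9 was 0.15, 0.057, 0.12 and 0.03 in the 4 comparisons, beside -0.0064, 0.012, 0.0014 and -0.0036 for all genes.

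In the mean of CPIP and CPIP+EA against Sham, 6 libraries against 3, the log2 fold change of Lifr was 0.35 (unadjusted p = 0.00899, adjusted p = 0.208) and that of Socs3 was 0.47 (unadjusted p = 0.0198, adjusted p = 0.296). Without Sham replicate 3 the value of Socs3 was 0.28. Neither gene's libraries were fully separated in this comparison.

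The other genes of the pathway were taken from lists by role. Of 7 other IL-6 family ligand genes, 4 passed the filter and 0 were DEGs in any comparison. Il27, Il31 and Ctf2 did not pass, and none of their libraries exceeded 0.31 FPKM. Il6 encodes interleukin-6, the founding member of the family, which injured sensory neurons make. Its FPKM was 0, 0.06 and 0.06 in Sham, 0.12, 0.36 and 0.66 in the CPIP group, and 0.53, 0.83 and 0.95 in CPIP+EA. All 6 libraries of rats with ischemia lay above all 3 Sham libraries, and the CPIP and CPIP+EA groups overlapped. The log2 fold change was 0.66 for CPIP against Sham (unadjusted p = 0.0163, adjusted p = 0.389), 0.56 for CPIP+EA against CPIP (unadjusted p = 0.0336, adjusted p = 0.996) and 1.22 for CPIP+EA against Sham (SE 0.22, unadjusted p = 0.000401, adjusted p = 0.0359), which missed the threshold of 0.01. Without CPIP replicate 3 the first value was 0.44, and without CPIP replicate 1 the second was 0.33. These FPKM are low, and the value of CPIP+EA against Sham ranged from 0.76 to 2.64 over the alternative settings, among which the pseudocount moved it most. The summed macrophage marker FPKM, all 6 of them above 0 in every library, was 42.5–53.9 in Sham, 45.8–56.5 in the CPIP group and 46.1–70.6 in CPIP+EA, and its part was not tested. Ebi3, a subunit of interleukin-27 and interleukin-35, had log2 fold changes of -0.25 for CPIP against Sham and 0.35 for CPIP+EA against CPIP. With 1 library left out these ranged from -0.4 to -0.12 and from 0.2 to 0.45.

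Of the 5 other IL-6 family receptor genes, all were tested and 0 were DEGs in any comparison, with median log2 fold changes of 0.12 for CPIP against Sham and -0.022 for CPIP+EA against CPIP. Il6r, the interleukin-6 binding subunit, lay between 2.29 and 3.43 FPKM, with a log2 fold change of 0.23 for CPIP against Sham, and Il11ra1, the interleukin-11 binding subunit, had -0.19. With 1 library left out these ranged from 0.14 to 0.35 and from -0.24 to -0.098.

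Among the 10 JAK kinase and other STAT genes, 0 were DEGs in any comparison, and in CPIP against Sham 3 had an unadjusted p under 0.05, all higher in CPIP, against 4.61% of all genes in that direction and 8.66% in either. The count was 0 of 10 in CPIP+EA against CPIP (4.29% of all genes), 2 of 10 in CPIP+EA against Sham (12.2%) and 3 of 10 in the mean of CPIP and CPIP+EA against Sham (11.8%). The median log2 fold change of these 10 genes was 0.19 in CPIP against Sham and 0.084 in CPIP+EA against CPIP. Jak2 encodes a kinase that is bound to gp130. Its FPKM was 9.52, 11.07 and 10.24 in Sham, 11.63, 12.06 and 12.99 in the CPIP group, and 13.28, 13.49 and 13.88 in CPIP+EA, so that the 3 groups did not overlap and lay in this order. Jak2 had a log2 fold change of 0.24 for CPIP against Sham (unadjusted p = 0.00988, adjusted p = 0.312), 0.14 for CPIP+EA against CPIP (adjusted p = 0.996) and 0.38 for CPIP+EA against Sham (SE 0.074, unadjusted p = 0.000558, adjusted p = 0.0441), a difference under 1.5-fold. Stat4, a factor of interleukin-12 signalling, had low FPKM, at 0.14, 0.22 and 0.33 in Sham, 0.66, 0.35 and 0.75 in the CPIP group, and 0.58, 0.80 and 0.55 in CPIP+EA. Its log2 fold change of CPIP against Sham was 0.56 (unadjusted p = 0.011, adjusted p = 0.324), and it ranged from 0.36 to 1.05 over the alternative settings. Jak1, the kinase on which gp130 signalling chiefly depends, lay between 58.12 and 82.18 FPKM with a log2 fold change of 0.071, and Tyk2 had 0.034. Stat5b, named for its p-value between CPIP+EA and CPIP, had 0.081 there.

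Among the 14 other inhibitors of the pathway, which are SOCS and PIAS proteins and phosphatases, 0 were DEGs in any comparison and 0 had an unadjusted p under 0.05, against 8.66%, 4.29%, 12.2% and 11.8% of all genes in the 4 comparisons. Their median log2 fold change was 0.019 for CPIP against Sham. The smallest p-values of that comparison belonged to Socs5 (log2 fold change -0.11) and Ptpn6 (0.31), a phosphatase of blood cells, and those of CPIP+EA against CPIP to Ptpn2 (0.18) and Socs4 (-0.16). The map of the pathway genes shows the levels in each library relative to Sham.

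**Figure D4:**
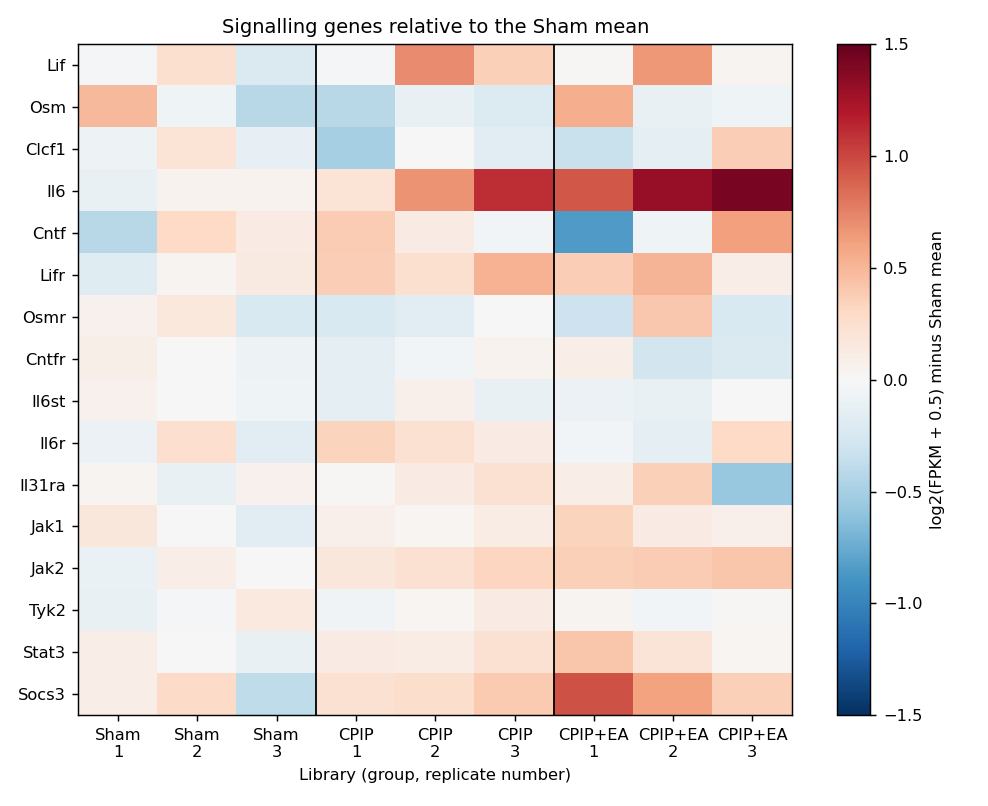
Log2(FPKM + 0.5) of ligand, receptor and kinase genes, Stat3 and Socs3 (rows) in the 9 libraries (columns), minus the gene's mean in Sham, from blue (lower) to red (higher). Il6 is red in the CPIP and CPIP+EA libraries, Jak2 is faintly red in all 6 of them, and the rows of Il6st and Tyk2 are nearly white throughout.

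Some genes known from other work to respond to STAT3 or to gp130 cytokines were DEGs. Of 23 such genes, 21 were tested, and Fga and Fgb did not pass the filter. In CPIP against Sham, 6 of the 21 rose and 0 fell at the DEG threshold, which 0.355% of all genes passed. The same counts were found in CPIP+EA against Sham (0.483% of all genes) and in the mean of CPIP and CPIP+EA against Sham (0.599%). Between CPIP+EA and CPIP, limma called 0 of the 21, and 3 had an unadjusted p under 0.05, against 4.29% of all genes. These were Gal, Gfap and, at the threshold itself (0.05 after rounding), Vip. The list was put together with earlier results of these data known, so its counts are a description.

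Some of the 6 risen genes carry in their promoter the palindrome that STAT dimers bind. The motif searched was TTCNNNGAA, which reads the same on both strands, in the 250 bases before each transcription start in RefSeq's GRCr8 promoter table. All 6 were matched there, and 3 held the motif. Their promoters are shown here 5′ to 3′ on the strand of the gene, with the motif in capitals.
Hamp, chr1:95300272-95300521, minus strand, motif starting 117 bases before the start: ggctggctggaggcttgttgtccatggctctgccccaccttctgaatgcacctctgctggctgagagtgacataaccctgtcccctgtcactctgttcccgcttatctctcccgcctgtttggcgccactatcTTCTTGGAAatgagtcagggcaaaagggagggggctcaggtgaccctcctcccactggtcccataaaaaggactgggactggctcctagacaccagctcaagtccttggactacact
Reg3b, chr4:112419526-112419775, plus strand, motif starting 129 bases before the start: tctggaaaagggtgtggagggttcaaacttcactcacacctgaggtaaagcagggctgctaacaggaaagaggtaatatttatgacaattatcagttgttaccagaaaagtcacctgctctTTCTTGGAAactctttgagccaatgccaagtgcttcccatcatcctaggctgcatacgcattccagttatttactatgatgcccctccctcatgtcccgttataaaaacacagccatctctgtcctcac
Serpina3n, chr6:129088142-129088391, plus strand, motif starting 123 bases before the start: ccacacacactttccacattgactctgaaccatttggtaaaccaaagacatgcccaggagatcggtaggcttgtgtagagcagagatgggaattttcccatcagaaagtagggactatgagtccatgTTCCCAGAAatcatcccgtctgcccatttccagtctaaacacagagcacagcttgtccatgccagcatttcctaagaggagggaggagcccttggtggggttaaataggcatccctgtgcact

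The same nonamer with TTG at its centre appeared in Hamp and Reg3b, and CCA stood at the centre in Serpina3n. The motif was found in 7.67% of all 33469 promoters of the table, and at least 1 promoter held it in 8.19% of the table's 27457 genes and in 6.69% of the matched genes that were tested. Of the 23 STAT3-responsive genes, 18 were matched, with 22 promoters, and 6 genes held it. Of the 9 signalling genes, 5 were matched (Lifr, Osmr, Cntf, Stat3 and Socs3), and these letters were in none of the 5 windows. A match is a description of the sequence, and binding was not measured.

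Hamp encodes hepcidin, the iron hormone that interleukin-6 induces through STAT3 in liver. Its FPKM was 0, 0.18 and 0 in Sham, 9.21, 13.15 and 11.09 in the CPIP group, and 10.05, 11.92 and 7.65 in CPIP+EA. The Sham libraries were at or near 0 and the other 6 overlapped each other, with a log2 fold change of 4.38 for CPIP against Sham (SE 0.20, adjusted p = 1.19e-05) and -0.17 for CPIP+EA against CPIP. Serpina3n encodes an acute-phase protease inhibitor, and its FPKM was 1.61, 0.38 and 0.45 in Sham, 28.84, 59.33 and 27.81 in the CPIP group, and 33.51, 40.51 and 26.56 in CPIP+EA. It rose by a log2 fold change of 4.93 in CPIP (SE 0.38, adjusted p = 0.000391), and its highest library, CPIP replicate 2, is the one highest in skeletal muscle markers. Reg3b, a secreted lectin of stressed neurons and gut, had 1.36, 0.88 and 0.73 FPKM in Sham, 16.04, 13.38 and 14.93 in the CPIP group, and 7.73, 13.23 and 14.14 in CPIP+EA. It rose by 3.38 in CPIP (SE 0.23, adjusted p = 0.000151), and the CPIP+EA group overlapped CPIP (log2 fold change -0.37, 95% interval -0.88 to 0.15). Without CPIP+EA replicate 1 the latter value was -0.1.

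The other 3 risen genes are injury genes of sensory neurons. Gal encodes galanin, which LIF is known to induce in axotomized neurons, and its FPKM was 4.66, 5.32 and 5.40 in Sham, 37.03, 41.00 and 48.14 in the CPIP group, and 62.97, 60.37 and 52.86 in CPIP+EA. The 3 groups did not overlap. Gal rose by a log2 fold change of 2.91 in CPIP against Sham (SE 0.11, adjusted p = 9.64e-06), and CPIP+EA against CPIP had 0.48 (SE 0.11, unadjusted p = 0.0015, adjusted p = 0.969). Vip encodes vasoactive intestinal peptide, and its FPKM was 0.24, 0.12 and 0.08 in Sham, 13.03, 10.36 and 17.00 in the CPIP group, and 21.81, 16.63 and 15.90 in CPIP+EA. It rose by 4.41 in CPIP (SE 0.19, adjusted p = 1.19e-05), and the CPIP+EA libraries overlapped those of CPIP (log2 fold change 0.43). The latter value ranged from 0.26 to 0.61 with 1 library left out. Sprr1a encodes a protein that promotes axon outgrowth, with 0, 0.08 and 0 FPKM in Sham, 3.46, 2.65 and 3.10 in the CPIP group, and 3.44, 3.39 and 2.79 in CPIP+EA, and a log2 fold change of 2.76 (SE 0.13, adjusted p = 1.49e-05).

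The fold changes of Hamp, Vip and Sprr1a depend on the pseudocount because their Sham values are near 0, and over all alternatives they ranged from 3.51 to 6.3, from 3.63 to 5.8 and from 1.98 to 4.7. All 6 remained DEGs in CPIP against Sham without each library in turn. In CPIP against Sham the median log2 fold change of the 21 was 0.18, with 13 positive and 8 negative. At an unadjusted limma p under 0.05, 8 of the 21 were higher and 0 lower. Among all genes, 4.61% were higher at that p and 8.66% differed in either direction. Besides the 6 DEGs these were Ccl2 (0.63, unadjusted p = 0.00421, adjusted p = 0.198) and Timp1 (0.44, unadjusted p = 0.0328, adjusted p = 0.509). Each had all CPIP libraries above all Sham libraries. Gfap, a glial filament gene, had -0.17 in CPIP against Sham and 0.63 in CPIP+EA against CPIP (unadjusted p = 0.0452, adjusted p = 0.996). In the latter, 3 satellite glia markers were positive and 1 negative, from -0.21 (Glul) to 0.71 (Fabp7) with a median of 0.12, and 0 were DEGs. The part of satellite glia RNA in the difference of Gfap was not tested. A2m, which encodes the protease inhibitor alpha-2-macroglobulin, had 19.23, 15.87 and 15.23 FPKM in Sham, 13.33, 14.85 and 13.00 in the CPIP group, and 11.38, 8.19 and 13.12 in CPIP+EA. Its Sham libraries lay above the other 6, with log2 fold changes of -0.28 in CPIP against Sham (adjusted p = 0.74), -0.62 in CPIP+EA against Sham (SE 0.16, unadjusted p = 0.00349, adjusted p = 0.128) and -0.45 in the mean against Sham (unadjusted p = 0.00963, adjusted p = 0.214). All 4 fibroblast markers (Col1a1, Dcn, Pdgfra and Lum) also had negative log2 fold changes in these comparisons, with medians of -0.23, -0.58 and -0.46, and 0 were DEGs. Lum, a collagen-binding proteoglycan gene, had -0.64 in CPIP+EA against Sham (adjusted p = 0.0839), with every CPIP+EA library below every Sham library. The markers summed to 768–1040 FPKM in Sham, 654–862 in the CPIP group and 428–881 in CPIP+EA, none was at 0 in any library, and the part of fibroblast RNA in the differences of A2m was not tested.

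**Figure D5:**
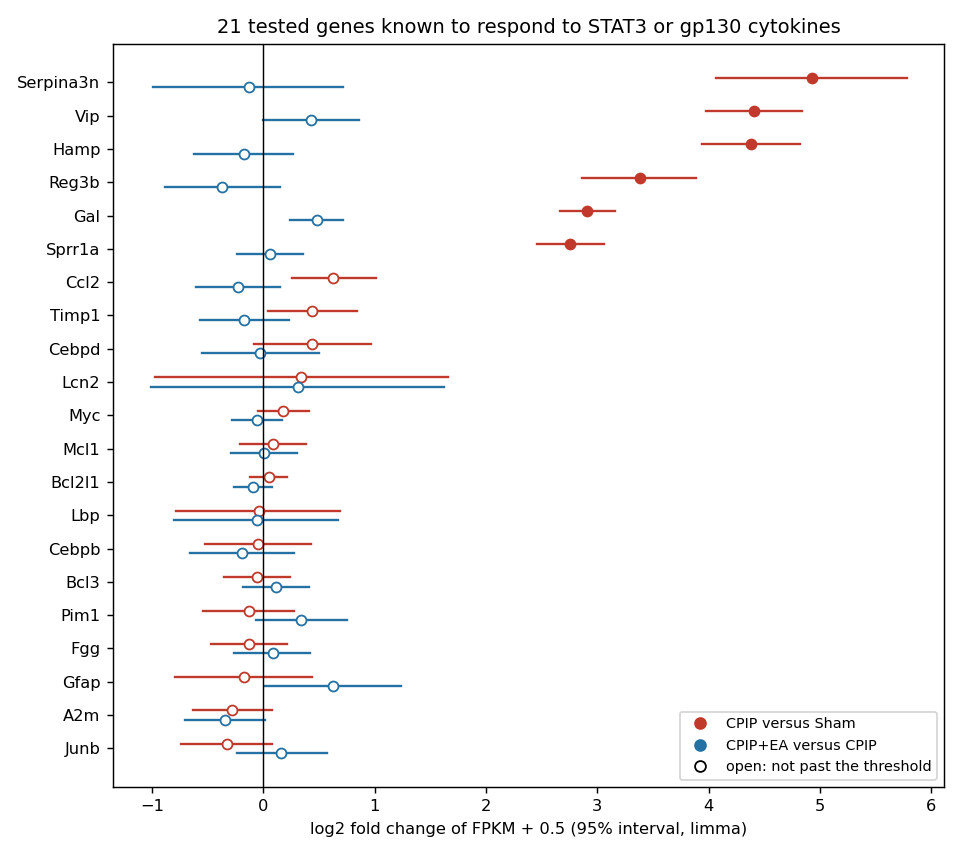
Log2 fold changes of FPKM + 0.5 (horizontal axis) of the 21 tested STAT3- or gp130-responsive genes, with 95% intervals of the limma fit, for CPIP against Sham (red) and CPIP+EA against CPIP (blue), filled where the gene was a DEG. The 6 DEGs lie between 2.76 and 4.93 in CPIP against Sham, and no blue point is filled.

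Itch neurons that carry the oncostatin M and IL-31 receptors are marked by Nppb, Sst, Htr1f, Cysltr2 and Il31ra. All 5 of these genes were tested and 0 were DEGs in any comparison. At an unadjusted p under 0.05 there was 1 of 5 in CPIP against Sham (8.66% of all genes), 0 in CPIP+EA against CPIP (4.29%) and 2, in opposite directions, in CPIP+EA against Sham (12.2%). The median log2 fold change was 0.12 for CPIP against Sham and -0.16 for CPIP+EA against CPIP. Htr1f, a serotonin receptor gene, had 0.13, 0.13 and 0.22 FPKM in Sham, 0.61, 0.49 and 0.44 in the CPIP group, and 0.61, 0.22 and 0.31 in CPIP+EA, with a log2 fold change of 0.62 in CPIP against Sham (unadjusted p = 0.0052, adjusted p = 0.225). Over the alternative settings this value ranged from 0.38 to 1.25. Cysltr2, a leukotriene receptor gene, had -0.38 in CPIP against Sham, and between -0.63 and -0.18 with 1 library left out. The 2 genes of CPIP+EA against Sham were Cysltr2 (log2 fold change -0.63, unadjusted p = 0.0169, adjusted p = 0.273) and Htr1f (0.39, unadjusted p = 0.0447, adjusted p = 0.394). Without CPIP+EA replicate 1 the value of Htr1f was 0.21.

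For each of the 6 signalling genes with a mean of at least 1 FPKM, the 2 tested genes with the most similar course over the 9 libraries were found by Pearson's r of log2(FPKM + 0.5). For Lifr they were Kcne3 and Eif6 (r = 0.969 each), for Stat3 Celf4 (0.974) and Map9 (0.973), and for Socs3 Nap1l1 (0.956) and Ndel1 (0.944). For Cntf they were Tesk2 (0.969) and Hps4 (0.963), for Cntfr Txk (0.952) and Mpzl2 (0.948), and for Osmr Spp2 (0.945) and Zfp865 (0.911). These are the highest of 17187 genes over 9 points that share libraries, and none of the other signalling genes was among them.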

How the data were processed

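Bulk RNA-Seq of 9 DRG libraries (3 groups of 3, assigned from the sample labels) was used. The authors filtered reads with SOAPnuke and deposited FPKM values, rounded to 2 decimals. The authors also deposited a log2 ratio, a P-value and a Q-value for each pair of groups, and these columns were not used. The aligner, the genome build and the strandedness are not given in the sources used here. No read counts were used, so the depth behind an FPKM value is unknown and no count test was run.

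After adding 0.5 and taking log2, all 9 libraries were fitted together in limma (version 3.58.1, R 4.3.3) with lmFit, contrasts.fit and a trended eBayes. P-values were two-sided and Benjamini-Hochberg adjusted over genes averaging 0.1 FPKM or more. A DEG needed an adjusted p under 0.01 and a 1.5-fold difference in either direction. The fit was tested on simulated data, where the added changes were larger than those of the signalling genes. That test does not bear on differences as small as theirs. Tables were made with Python 3.11.15, pandas 2.3.3 and numpy 2.4.6, and figures with matplotlib 3.10.9. P-values weigh a difference between groups against the spread of libraries within groups. That spread was pooled over the 3 groups and drawn towards that of other genes by eBayes.

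The members and the lists were chosen with earlier results of these data known, and some list genes are not reported here. All 9 members are named, as are list genes that are DEGs, the 2 genes with the smallest p of each list in CPIP against Sham and in CPIP+EA against CPIP, Il6st, Il31ra, Il6, Il6r, Jak1, Jak2 and Tyk2 whatever their values, and the 2 genes most alike in course to each member with a mean of at least 1 FPKM. Rad9a, A2m, Ccl2, Timp1 and the neuron, satellite glia and fibroblast markers were added after their values were seen. The settings varied were the pseudocount (0.1 or 1), the filter (none, or a mean of 1 FPKM), a TPM scale, quantile normalization, the trend (none), a block for the replicate number, fits restricted to the groups compared, an adjusted p under 0.05 with no fold threshold, and each library left out in turn.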

Additional observations from a re-analysis of the deposited data

How the results depend on the processing

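None of the 9 signalling genes became a DEG under any alternative run, in any of the 4 comparisons, and the 6 STAT3-responsive DEGs numbered 6 against Sham throughout. With a mean FPKM of at least 1 required, Lif, Osm and Clcf1 were not tested. With an adjusted p under 0.05 and no fold threshold, Il6 (log2 fold change 1.22) and Jak2 (0.38) passed in CPIP+EA against Sham, where over all alternatives their adjusted p ranged from 0.0182 to 0.139 and from 0.0352 to 0.151.

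The number of DEGs among all genes moved more. In CPIP against Sham it was 61, and it was 40 with no filter and 122 with an adjusted p under 0.05 and no fold threshold. In CPIP+EA against Sham it was 83, and 55, 226 and, with only the groups compared, 51. In the mean of CPIP and CPIP+EA against Sham it was 103, and 274 with the looser threshold. In CPIP+EA against CPIP it was 0, and 1 with only the groups compared. Leaving out 1 library gave 30 to 62, 35 to 82, 55 to 107 and 0 to 2. In CPIP against Sham the count moved by over 1.5 times without Sham replicate 1 (34), 2 (30) or 3 (38) and CPIP replicate 2 (34) or 3 (30), in CPIP+EA against Sham without Sham replicate 1 (50), 2 (47) or 3 (48), CPIP replicate 2 (54) or CPIP+EA replicate 2 (35), in the mean against Sham without Sham replicate 1 (56), 2 (55) or 3 (60), and in CPIP+EA against CPIP without CPIP+EA replicate 1 (2) or 3 (1), CPIP replicate 3 (1) or Sham replicate 3 (1). These fits have fewer samples, another threshold or another set of genes tested by construction, and otherwise the cause was not tested.

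The correlation of deviations from the group mean ranged from -0.236 to 0.297 between libraries of the same number. Between libraries of different numbers it ranged from -0.223 to 0.28. Replicate numbers thus gave no sign of pairing, which these ranges cannot exclude. With the replicate block, 26, 42 and 63 genes were DEGs in CPIP against Sham, CPIP+EA against Sham and the mean against Sham, and 0 of the 9 signalling genes.

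Small fold changes turned sign when 1 library was left out. In CPIP against Sham the ranges were -0.049 to 0.31 for Cntf, -0.093 to 0.0048 for Cntfr, -0.44 to 0.0075 for Gfap, -0.024 to 0.10 for Glul, -0.012 to 0.15 for Jak1, -0.024 to 0.11 for Tyk2, -0.079 to 0.11 for Ptpn2 (-0.0042 on the TPM scale), -0.0016 to 0.089 for Socs4 and -0.045 to 0.031 for Stat5b. In CPIP+EA against CPIP they were -0.32 to 0.07 for Lif, -0.14 to 0.063 for Lifr, -0.61 to 0.12 for Cntf, -0.13 to 0.23 for Osmr, -0.02 to 0.33 for Clcf1, -0.045 to 0.15 for Stat3, -0.32 to 0.22 for Serpina3n and -0.031 to 0.14 for Sprr1a. In CPIP+EA against Sham they were -0.45 to 0.28 for Cntf, -0.093 to 0.36 for Osm, -0.27 to 0.093 for Osmr and -0.24 to 0.11 for Clcf1. Of the 1783 values of single genes under alternatives, 1746 kept their direction and their side of the threshold. Near 0.3 FPKM, 2 decimals and unknown depth limit what Lif and Osm can show.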
